A study of Arabidopsis thaliana with 4 samples.

Results

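The genes examined were 10 well-known Arabidopsis genes of DNA methylation and heterochromatin silencing: the cytosine methyltransferase genes *MET1*, *CMT3*, *CMT2* and *DRM2*, the H3K9 methyltransferase gene *KYP*, the remodeler gene *DDM1*, the polymerase subunit genes *NRPD1* and *NRPE1*, and the DNA glycosylase genes *ROS1* and *DME*. They were taken by their gene identifiers and not by a rule on their values, although earlier results of these data were known. All 10 of them were found among the 37336 genes of the deposited table. Transcripts were measured in whole 6-day-old seedlings of *s2lb-2* plants (2 libraries) and of wild-type Col-*0* plants (2 libraries), grown under long days and extracted as pools of seedlings from different seed batches. *S2Lb* encodes a homolog of Swd2, a subunit of the COMPASS complexes that trimethylate lysine 4 of histone H3 (H3K4me3). The *s2lb-2* allele is a single insertion line of the Nossen accession that was repeatedly backcrossed to Col-*0*, so that genes near the insertion may still carry Nossen sequence. The titles name these plants *s2lb*, which was followed here, although their genotype tag gives a line with myc-tagged SDG2.

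Plants methylate cytosines in the CG, CHG and CHH contexts (H is any base but G) through separate pathways. MET1 copies CG methylation after replication, CMT3 and CMT2 maintain non-CG methylation on nucleosomes that carry the H3K9 methylation set by KYP, and DDM1 opens heterochromatin to these enzymes. In RNA-directed DNA methylation (RdDM), the RNA polymerases IV and V, whose largest subunits are NRPD1 and NRPE1, produce the small and scaffold RNAs that guide DRM2. The glycosylases ROS1 and DME excise methylated cytosines, ROS1 in vegetative tissue and DME above all in the companion cells of the gametes. Together these activities keep transposons silent while genes stay active.

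The 4 libraries held between 34325097 and 39114300 reads on genes, and the 10 genes were covered by between 270 and 2693 reads each per library. The values are reads divided by 1 size factor per library, hereafter normalized counts. *S2Lb* (AT5G66240), which checks the labels, had 80.8 and 67.2 normalized counts in the *s2lb-2* libraries, compared to 1337 and 1613 in the wild-type libraries (log2 fold change -4.30, limma adjusted p = 0.00620). Genotypes were compared with limma on log2(normalized count + 1) over 23723 genes, and genes with a Benjamini-Hochberg adjusted p under 0.01 were called misregulated. Nothing beyond the seed batches is stated to separate the replicates, so p-values measure the spread between these libraries. Seed storage transcripts differed between replicates of both genotypes, with 112 and 19.7 normalized counts of *CRA1*, a cruciferin gene, in *s2lb-2* replicates 1 and 2 and 301 and 16.7 in wild-type replicates 1 and 2. Their part in the results below was not tested.

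None of the 10 methylation and silencing genes was called misregulated in *s2lb-2* seedlings. By limma 0 of 10 passed the threshold, where 0.122% of all tested genes did, and 0 of 10 passed at an adjusted p under 0.05, where 1.6% of all tested genes did. With an unadjusted p under 0.05 there were 2 of them, *ROS1* and *CMT3*, beside 17.4% of all tested genes. At an adjusted p under 0.01, tests on the recovered reads also called 0 of 10, namely DESeq2 (3.41% of its genes called), edgeR's quasi-likelihood test (0.177%) and limma-voom (0.131%). For 3 of the 10 genes mutant and wild-type libraries were fully separated, *ROS1*, *CMT3* and *NRPE1*, a smaller share than the 49.5% of all tested genes that were separated in this way. The median log2 fold change of the 10 genes was -0.027, compared to -0.0022 for all tested genes, with 3 above and 7 below 0. For the 7 genes with overlapping libraries the log2 fold changes lay between -0.083 and 0.12, and their 95% intervals reached from -0.41 to 0.37, that is from 0.751-fold to 1.30-fold.

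**Figure D1:**
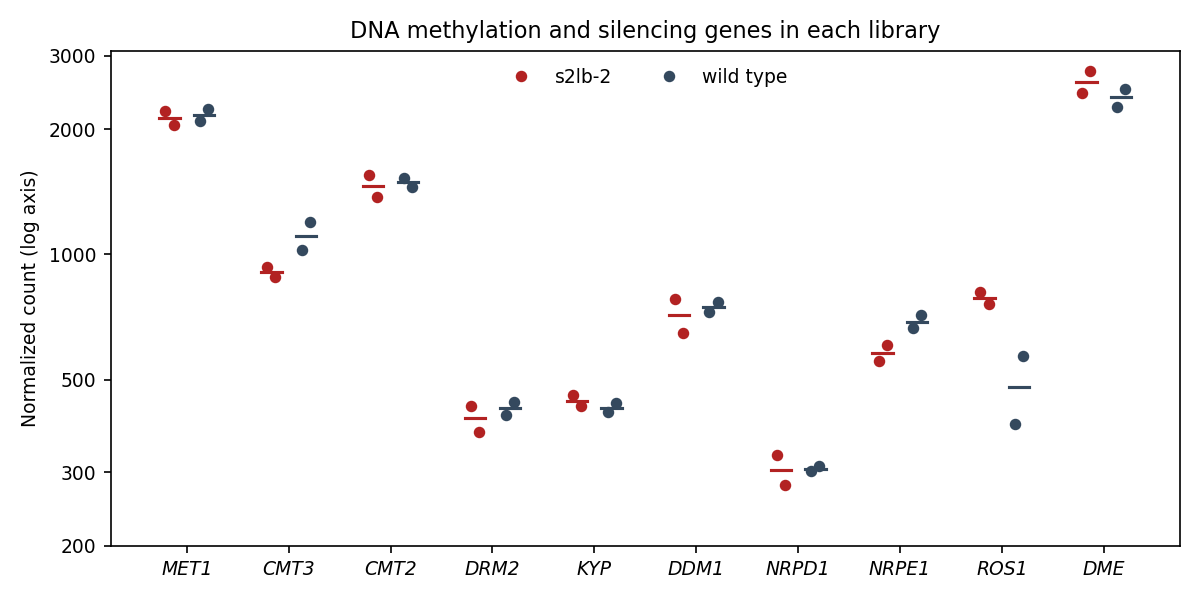
Normalized counts of the 10 genes in each library on a log axis, with *s2lb-2* libraries in red left of wild-type libraries in dark blue and a line at each mean of 2 libraries. The libraries of the genotypes separate for *CMT3*, *NRPE1* and *ROS1*, and overlap for the other 7 genes.

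**Figure D2:**
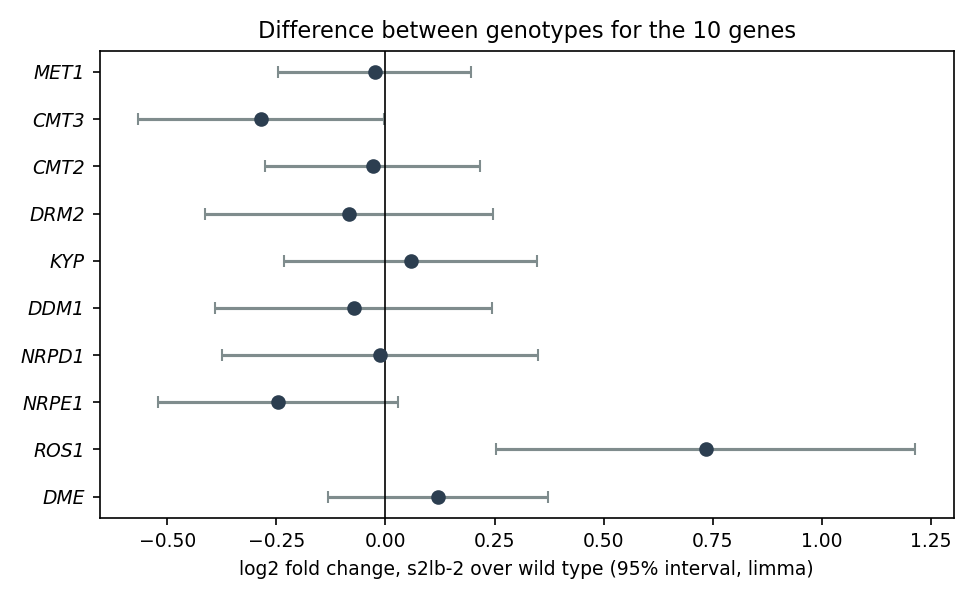
Log2 fold change of *s2lb-2* over wild type for the 10 genes (points) with 95% intervals of the limma fit (bars). The point of *ROS1* lies at 0.73, all others lie between -0.28 and 0.12, and only the intervals of *ROS1* and *CMT3* leave out 0.

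Among the methyltransferases, *MET1* was the most abundant transcript per length in both genotypes. *MET1* (AT5G49160, chromosome 5 of TAIR10.1 from 19932114 to 19938470) had 2208 and 2045 normalized counts in *s2lb-2* and 2091 and 2236 in wild-type libraries. The ranges were almost the same, and the log2 fold change was -0.025 (95% interval -0.25 to 0.20, limma adjusted p = 0.915). *CMT2* (AT4G19020, chromosome 4 from 10414428 to 10421265), which acts on CHH sites of long transposons, had 1548 and 1374 normalized counts in *s2lb-2* and 1527 and 1452 in wild-type libraries (log2 fold change -0.030, 95% interval -0.28 to 0.22). *DRM2* (AT5G14620, chromosome 5 from 4715105 to 4718704), the methyltransferase of RdDM, had 432 and 375 normalized counts in *s2lb-2* and 411 and 443 in wild-type libraries (log2 fold change -0.083, 95% interval -0.41 to 0.25). Both genes overlapped between genotypes.

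*CMT3* (AT1G69770, chromosome 1 from 26248118 to 26253687), the main CHG methyltransferase, was the methyltransferase gene whose libraries separated. It had 934 and 883 normalized counts in *s2lb-2* libraries and 1024 and 1196 in wild-type libraries, so that both mutant libraries lay below both wild-type libraries. The means were 909 ± 35.7 in *s2lb-2* and 1110 ± 121 in wild type (SD, n = 2 each), 0.818-fold. The log2 fold change of -0.28 (95% interval -0.57 to -0.0038, standard error 0.113) was not called (limma adjusted p = 0.282). Fewer cells that express a gene and less RNA per cell cannot be told apart in whole seedlings. *CMT3*, *MET1* and *DDM1* are known to be expressed in dividing cells. Of 13 replication genes, 0 were called by limma (2 had an unadjusted p under 0.05), 1 by DESeq2 and 0 by edgeR and limma-voom. Their summed normalized count was 16703 and 15209 in *s2lb-2* libraries and 14993 and 15387 in wild-type libraries, and their median log2 fold change was -0.052. These sums overlap. The 4 mitotic genes had a summed normalized count of 2504 and 2262 in *s2lb-2* and 2520 and 2853 in wild-type libraries, so that both mutant libraries lay below both wild-type libraries. Of these 4 genes, 3 had a log2 fold change below 0 and 1 above (0.11). Libraries were fully separated for 1 of the 4, compared to 49.5% of all tested genes. *CDKB2;1*, a cyclin-dependent kinase gene, was 0.873-fold and *KNOLLE*, a syntaxin gene of cell plate formation, 0.819-fold (log2 fold changes -0.20 and -0.27), and none of the 4 was called. The part of dividing cells in the values of *CMT3* was not tested. The lowest p-values of the replication list belonged to *TSO2*, a ribonucleotide reductase subunit gene (log2 fold change 0.46, limma adjusted p = 0.0862, DESeq2 adjusted p = 0.00881), and to *CDT1A*, a gene of replication licensing (log2 fold change -0.41, limma adjusted p = 0.225).

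The histone methyltransferase and the remodeler that work with these enzymes overlapped between genotypes. *KYP* (AT5G13960, chromosome 5 from 4501362 to 4506250), also known as *SUVH4*, had 460 and 432 normalized counts in *s2lb-2* and 418 and 439 in wild-type libraries (log2 fold change 0.058, 95% interval -0.23 to 0.35). It overlaps AT5G13970 on the opposite strand, a gene with up to 436 normalized counts. The strand setting of the counts is not given in the sources used here, so reads of this pair may not be fully told apart. *DDM1* (AT5G66750, chromosome 5 from 26648897 to 26653191) had 783 and 648 normalized counts in *s2lb-2* and 729 and 770 in wild-type libraries (log2 fold change -0.073, 95% interval -0.39 to 0.24). Both wild-type values lie between the mutant values.

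*DDM1* lies 180 kb from *S2Lb* and is the nearest of the 10 genes to the insertion. Of the 240 other tested genes within 500 kb of *DDM1*, 3 were called by limma, where 0.122% of all tested genes were, and 11 of 221 by DESeq2 (4.98%, compared to 3.41% of all its genes). The 3 are *S2Lb* itself, AT5G66052 (log2 fold change -8.15) and AT5G67370 (log2 fold change 1.36), named after their values were seen. *S2Lb* is also among the 11, so both counts include the mutated gene. *DDM1*, whose libraries overlapped, lies among genes called in both directions. *MET1* lies 6528 kb from *S2Lb* on the same chromosome, and among its 212 tested neighbours within 500 kb limma called 1, AT5G49440 (log2 fold change -1.25, named after its value was seen), and DESeq2 called 11 of 194 (5.67%). Called neighbours were also found further away on that chromosome and on others. Limma called 1 of 262 near *DRM2* (AT5G15960, log2 fold change -1.95), 1 of 218 near *CMT2* (AT4G19690, log2 fold change 1.89) and 2 of 254 near *NRPE1* (AT2G39310, log2 fold change -1.10, and AT2G39800, log2 fold change 1.32). Near the other 5 genes it called 0, where DESeq2 called between 4 and 6, or 1.9% to 3.1% of the neighbours it tested. DESeq2 called 3.27% near *DRM2*, 2.58% near *CMT2* and 2.98% near *NRPE1*, beside 3.41% of all its genes. Sequence differences between the accessions and their part in these values were not tested.

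The 2 polymerase subunit genes differed in their values. *NRPD1* (AT1G63020, chromosome 1 from 23354685 to 23362589), the subunit of polymerase IV, had 330 and 279 normalized counts in *s2lb-2* and 302 and 310 in wild-type libraries, with a log2 fold change of -0.013 (95% interval -0.37 to 0.35). *NRPE1* (AT2G40030, chromosome 2 from 16714460 to 16723718), the subunit of polymerase V, had 556 and 607 normalized counts in *s2lb-2* libraries and 665 and 714 in wild-type libraries. Both mutant libraries of *NRPE1* lay below both wild-type libraries, with means of 581 ± 36.5 in *s2lb-2* and 690 ± 34.6 in wild type (SD, n = 2 each). The log2 fold change was -0.25 (95% interval -0.52 to 0.028), which was not called either (limma adjusted p = 0.333). That the polymerase subunits differ from each other in their response was not tested.

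*ROS1* showed the largest difference of the 10 genes. *ROS1* (AT2G36490, chromosome 2 from 15307907 to 15314807 on the minus strand), the main DNA demethylase of vegetative tissue, had 813 and 760 normalized counts in *s2lb-2* libraries and 392 and 569 in wild-type libraries. Both mutant libraries lay above both wild-type libraries, and the wild-type libraries were further apart from each other than the mutant libraries were. The means were 786 ± 37.1 in *s2lb-2* and 480 ± 126 in wild type (SD, n = 2 each), 1.64-fold. The log2 fold change was 0.73 (95% interval 0.25 to 1.21, standard error 0.192), and 6.65% of all tested genes had one at least as high. *ROS1* was not called by limma (adjusted p = 0.148), and with DESeq2 the adjusted p was 0.0408, under 0.05 (as for 5.62% of its genes) but over 0.01. Without wild-type replicate 1 the log2 fold change was 0.46, and without wild-type replicate 2 it was 1.00, so its size depended on which wild-type library was used. Neither protein-coding gene next to *ROS1* had a difference of this size: AT2G36480 had a log2 fold change of 0.18 and AT2G36500 one of 0.14, both named for their position.

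The 250 bases before the annotated start of *ROS1*, which had the largest difference, and of *CMT3*, the other gene with an unadjusted p under 0.05, are shown in the sense of the gene, with CG sites, the targets of MET1, in capitals. *ROS1* is known to be controlled through methylation of its own promoter, and *DML3*, a related glycosylase gene described below, is shown beside them because its difference had the opposite direction to that of *ROS1*. The stretches come from the RefSeq genome TAIR10.1, at chr2:15314808-15315057 (minus strand) for *ROS1*, chr1:26253688-26253937 (minus strand) for *CMT3* and chr4:16313116-16313365 (plus strand) for *DML3*.
ROS1: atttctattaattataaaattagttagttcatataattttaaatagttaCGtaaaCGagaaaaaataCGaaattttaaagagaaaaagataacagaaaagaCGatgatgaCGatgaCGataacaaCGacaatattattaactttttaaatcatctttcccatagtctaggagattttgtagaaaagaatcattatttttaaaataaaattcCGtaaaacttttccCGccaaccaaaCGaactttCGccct
CMT3: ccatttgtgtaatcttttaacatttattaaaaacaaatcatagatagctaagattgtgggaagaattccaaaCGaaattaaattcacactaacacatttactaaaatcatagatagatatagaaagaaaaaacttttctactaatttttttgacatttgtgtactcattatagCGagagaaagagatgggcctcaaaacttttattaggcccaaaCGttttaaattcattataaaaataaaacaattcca
DML3: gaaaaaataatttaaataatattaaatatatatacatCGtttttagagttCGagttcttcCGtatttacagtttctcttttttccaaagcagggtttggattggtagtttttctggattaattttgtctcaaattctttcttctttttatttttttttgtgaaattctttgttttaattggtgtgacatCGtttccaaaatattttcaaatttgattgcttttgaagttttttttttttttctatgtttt
*ROS1* had 11 CG sites in this window, a number reached by 9.24% of the 27443 promoters of protein-coding genes (median 5), while *CMT3* had 3 and *DML3* had 4. In the same window *CMT2* had 10, *MET1* and *DRM2* 7 each, *DDM1*, *DME* and *NRPD1* 4 each and *KYP* 3. Of the replication genes, *MCM3* had 14 and *PCNA1* 11, and the others had between 4 and 9. These files hold no methylation levels, so whether any of these sites was methylated was not measured.

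The same windows of 9 of the 10 genes were searched for the E2F motif, through which replication genes are activated in S phase. The motif was written as TTT, then C or G at each of the next 2 positions, then CGC, and searched on both strands. It was found in 1 of these 9 genes, *ROS1*, in 7 of the 13 replication genes and in 1.41% of all 27443 promoters. In *ROS1* its first base lies 30 bases before the annotated start. The stretch of chr2:15314814-15314853 (minus strand) is shown with the motif in capitals.
ROS1: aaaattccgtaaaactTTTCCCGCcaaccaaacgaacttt
The median log2 fold change of -0.052 given above covers all 13 replication genes, and those with the motif were not taken separately. The part of the motif in the value of *ROS1* was not tested. A match is only a match of letters, and binding was not measured.

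*DME* (AT5G04560, chromosome 5 from 1309099 to 1318520), the founding member of the glycosylase family, had 2438 and 2750 normalized counts in *s2lb-2* and 2265 and 2502 in wild-type libraries. These overlap, with a log2 fold change of 0.12 (95% interval -0.13 to 0.37, limma adjusted p = 0.588). The remaining genes of the family were not among the 10. *DML3* (AT4G34060) had 99.5 and 115 normalized counts in *s2lb-2* libraries and 226 and 225 in wild-type libraries, 0.476-fold (log2 fold change -1.07, 95% interval -1.50 to -0.64). The wild-type libraries were nearly equal, and both mutant libraries lay well below them. *DML3* was not called by limma (adjusted p = 0.0576) and was called by DESeq2 (adjusted p = 0.00216). *DML2* (AT3G10010) had 377 and 396 normalized counts in *s2lb-2* libraries and 467 and 444 in wild-type libraries, without overlap (log2 fold change -0.24, limma adjusted p = 0.372).

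Per length, in TPM from the recovered reads, the shares of 3 of the 4 glycosylase genes were separated by genotype, as the counts of 49.5% of all tested genes were. *ROS1* took 27.2% and 23.9% of the summed TPM of the 4 glycosylase genes in *s2lb-2* libraries and 14.5% and 19.0% in wild-type libraries. *DML3* took 3.98% and 4.31% in *s2lb-2* and 9.98% and 8.92% in wild-type libraries. *DML2* took 13.9% and 13.7% in *s2lb-2* and 19.0% and 16.2% in wild-type libraries. The share of *ROS1* was thus higher, and those of *DML3* and *DML2* lower, in both *s2lb-2* libraries, with no test of shares. *DME* took the largest share in every library, between 54.9% and 58.1%. The summed TPM of the family was 26.2 and 30.2 in *s2lb-2* and 23.9 and 27.2 in wild-type libraries, which overlap. The summed TPM of the methyltransferase genes *MET1*, *CMT3*, *CMT2* and *DRM2* was 54.6 and 53.7 in *s2lb-2* libraries and 54.7 and 59.3 in wild-type libraries.

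**Figure D3:**
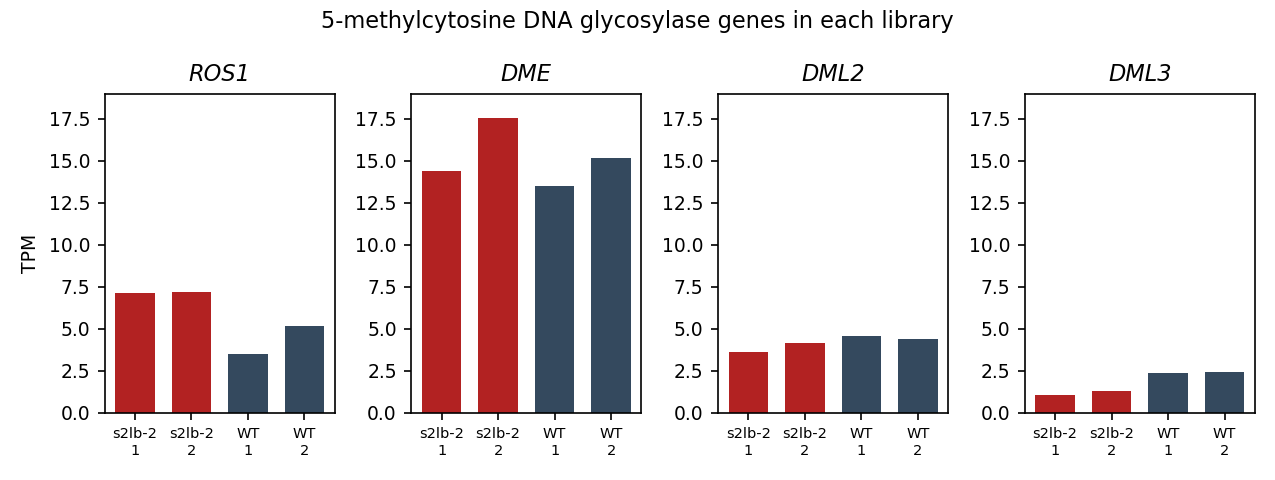
TPM of the glycosylase genes in each of the 4 libraries (bars, axis from 0), with *s2lb-2* libraries in red left of wild-type libraries in dark blue. *ROS1* stands at 7.15 and 7.22 TPM in *s2lb-2* and 3.47 and 5.15 TPM in wild-type libraries, and *DML3* at 1.04 and 1.30 TPM in *s2lb-2* and 2.39 and 2.42 TPM in wild-type libraries.

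*MET1* was the highest and *NRPD1* the lowest of the 10 genes per length in both genotypes, and *DME*, *CMT3*, *KYP*, *DRM2*, *ROS1* and *NRPE1* differed in rank. In *s2lb-2*, mean TPM ran from 18.5 for *MET1* over 16.0 for *DME*, 14.9 for *CMT2*, 13.1 for *CMT3*, 11.4 for *DDM1*, 7.70 for *KYP*, 7.63 for *DRM2*, 7.18 for *ROS1* and 3.87 for *NRPE1* to 2.49 for *NRPD1*. In wild type it ran from 18.5 for *MET1* over 15.7 for *CMT3*, 14.9 for *CMT2*, 14.3 for *DME*, 11.7 for *DDM1*, 7.93 for *DRM2*, 7.26 for *KYP*, 4.49 for *NRPE1* and 4.31 for *ROS1* to 2.46 for *NRPD1*. Neighbours whose libraries overlapped were *DME* and *CMT2* as well as *KYP* and *DRM2* in *s2lb-2*, and *CMT3* and *CMT2*, *CMT2* and *DME*, and *NRPE1* and *ROS1* in wild type. *ROS1* was thus above *NRPE1* without overlap in *s2lb-2*, while their libraries overlapped in wild type.

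The other genes of the pathway, 63 in lists by role, were examined in the same fit. Of the 62 that were tested, 0 were called by limma at an adjusted p of either 0.01 or 0.05, and 6 had an unadjusted p under 0.05, of which 2 were higher and 4 lower in *s2lb-2*. DESeq2 called 1, *DML3*, whereas edgeR and limma-voom called 0. Their median log2 fold change was -0.058, with 24 above and 38 below 0. Libraries were separated by genotype for 24 of them, compared to 49.5% of all tested genes.

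Among the 15 tested genes of methylation maintenance the median log2 fold change was -0.16. *MET2a* (AT4G14140), a weakly expressed relative of *MET1*, had 8.87 and 13.4 normalized counts in *s2lb-2* and 33.6 and 25.1 in wild-type libraries (log2 fold change -1.33, limma adjusted p = 0.182). The genotypes of *MET2a* did not overlap, at levels far below those of *MET1*. *VIM1*, which may share reads with its close copies and whose protein brings MET1 to hemimethylated DNA, had 1119 and 968 normalized counts in *s2lb-2* and 1251 and 1337 in wild-type libraries (log2 fold change -0.31, limma adjusted p = 0.235). *IBM2*, needed for the full-length transcript of the H3K9 demethylase gene *IBM1*, had 218 and 214 normalized counts in *s2lb-2* and 152 and 154 in wild-type libraries (log2 fold change 0.49, limma adjusted p = 0.195). The log2 fold change of *SAHH1*, whose enzyme clears the by-product of methyl transfer, was 0.27 (limma adjusted p = 0.232). *IBM1* itself had 845 and 819 normalized counts in *s2lb-2* and 859 and 805 in wild-type libraries, which overlap.

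Among the 26 genes of RdDM the median log2 fold change was -0.020. The lowest p-values belonged to genes of the CLASSY family, chromatin remodelers that bring polymerase IV to its loci. *CLSY2* had 15.8 and 17.6 normalized counts in *s2lb-2* and 28.3 and 39.0 in wild-type libraries (log2 fold change -0.96, limma adjusted p = 0.239). *CLSY1* had 340 and 342 normalized counts in *s2lb-2* and 407 and 413 in wild-type libraries (log2 fold change -0.27, limma adjusted p = 0.326). Neither overlapped between genotypes. The smallest p-values on the other side were those of *AGO6*, an Argonaute gene of RdDM (log2 fold change 0.35, limma adjusted p = 0.379), and *CLSY3* (log2 fold change 0.51, limma adjusted p = 0.477).

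Among the 11 genes of demethylation the median log2 fold change was -0.051. After *DML3* the lowest p-value was that of *IDM2*, a gene of the complex that guides ROS1 (log2 fold change -0.63, limma adjusted p = 0.361), with 20.7 and 21.7 normalized counts in *s2lb-2* and 31.5 and 35.3 in wild-type libraries. *LIG1* and *APE1L*, repair genes that act after base excision, had log2 fold changes of 0.13 each. Among the 10 readers and further silencing genes the log2 fold changes lay between -0.30 for *ATXR6*, an H3K27 monomethyltransferase gene, and 0.023 for *MBD9*, with a median of -0.082. *SUVH3*, a methyl-DNA reader gene, had a log2 fold change of -0.16, and *ATXR5* had one of 0.0056.

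**Figure D4:**
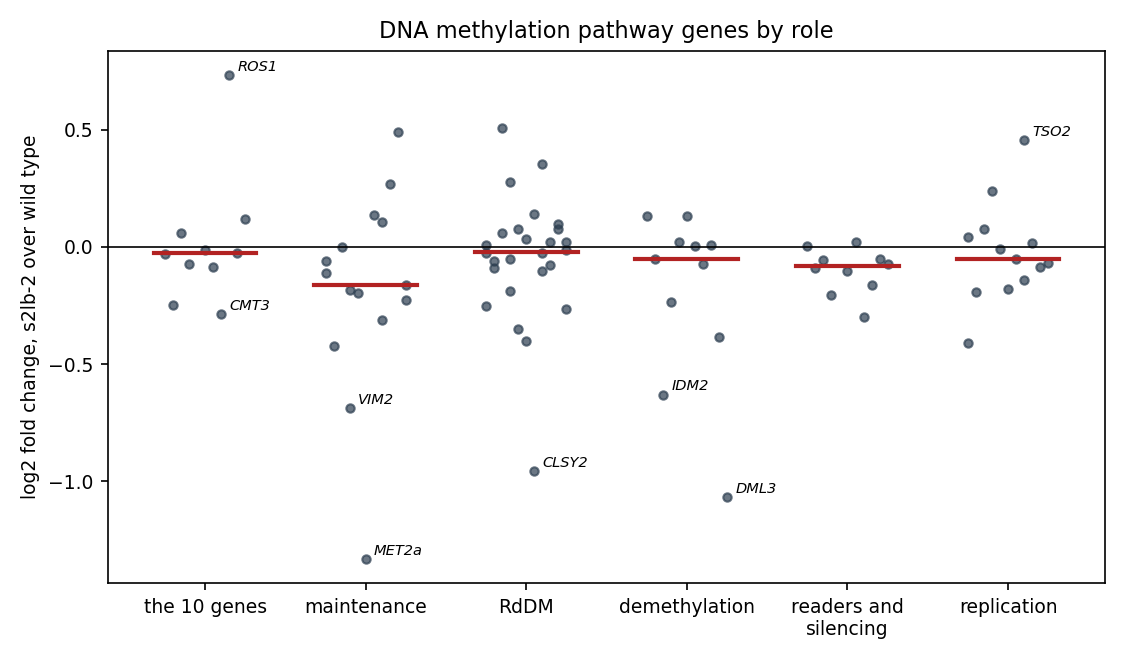
Log2 fold change of *s2lb-2* over wild type for each tested gene (points) of the 10 genes, of the pathway lists by role and of replication genes, with the median of each list as a red line. *ROS1* stands highest at 0.73, and *MET2a* (-1.33), *DML3* (-1.07) and *CLSY2* (-0.96) stand lowest.

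Of the transcripts that DNA methylation is known to silence, *FWA*, *SDC*, *MEA* and *FIS2* had few or no reads in both genotypes, while *QQS* was detected in every library. *FWA*, a homeobox gene, had 1.97 and 4.14 normalized counts in *s2lb-2* and 6.30 and 2.79 in wild-type libraries. *SDC*, an F-box gene silenced through RdDM, had 0 and 2.07 in *s2lb-2* and 1.05 and 0 in wild-type libraries. *QQS*, whose level varies with the methylation of repeats upstream of it, had 36.4 and 24.8 in *s2lb-2* and 13.6 and 49.2 in wild-type libraries. *MEA* and *FIS2*, endosperm genes activated by DME, had at most 4.20 and 2.95 normalized counts in any library. All of these overlapped between genotypes.

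The exception was *EVD* (AT5G17125), a *Copia* retrotransposon that is released when *MET1* or *DDM1* is lost. It had 7.88 and 7.24 normalized counts in *s2lb-2* libraries and 0 reads in both wild-type libraries. The genotypes of *EVD* thus did not overlap, as for 49.5% of all tested genes. With 3 reads over the wild-type libraries as the floor, it was at least 5.11-fold higher in *s2lb-2*, and was not called (limma adjusted p = 0.0871, and none given by DESeq2). This rests on 15 reads, and reads of the element can be shared with its near-identical copy. The annotation places *EVD* among pseudogenes, as it does most transposon genes. Over all 3903 annotated pseudogenes, 581 and 575 had a read in *s2lb-2* libraries and 488 and 544 in wild-type libraries. They took 0.101% and 0.112% of reads in *s2lb-2* and 0.0968% and 0.103% in wild-type libraries, which overlap. The 325 that were tested had a median log2 fold change of 0.19, compared to -0.0022 for all tested genes. At a limma adjusted p under 0.05, 8 of them were higher and 3 lower in *s2lb-2*. Of all tested genes 1.6% passed this threshold, 160 higher and 219 lower. Of the 325 tested, 1 was called by limma, where 0.122% of all tested genes were. It is AT5G64685 on chromosome 5 (log2 fold change 4.45), which is outside the lists and is named because it is the only one. Its distance to *S2Lb* on that chromosome was not examined. There were 52 pseudogenes with reads in both *s2lb-2* libraries and none in wild type, and 29 with the reverse. The same counts were not made over all genes, so they stand without a share to compare them with.

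Markers of tissues and of cell division gave 0 calls by limma in every list and, outside the replication genes, 0 by DESeq2, edgeR and limma-voom, with 1 unadjusted p under 0.05 outside the replication genes, that of *WOX5*. The 4 leaf genes took 1374796 and 1290769 in *s2lb-2* and 1395673 and 1403777 in wild-type libraries, where *RBCS1A* had a log2 fold change of -0.16 and *CA1* one of 0.14. The 5 root genes summed to 3176 and 3474 in *s2lb-2* and 3429 and 2672 in wild-type libraries, with log2 fold changes of -1.04 for *WOX5* and 0.16 for *SCR*. The 4 genes of the shoot meristem summed to 430 and 441 in *s2lb-2* and 459 and 511 in wild-type libraries, with 0.28 for *STM* and -0.24 for *KNAT1* as log2 fold changes. The 3 seed genes summed to 129 and 25.9 in *s2lb-2* and 330 and 32.5 in wild-type libraries, with log2 fold changes of -1.10 for *OLEO1* and -0.60 for *CRA1*. The sums of the leaf genes and of the shoot meristem genes were lower in both *s2lb-2* libraries than in both wild-type libraries, and those of the root and seed genes overlapped. Single genes did not follow these sums. Of the 4 shoot meristem genes, 3 had a log2 fold change above 0 and 1 below, with a median of 0.38. Of the 4 leaf genes, 2 lay above and 2 below 0. Of the 3 seed genes, 1 lay above 0 (log2 fold change 0.34) and 2 below. Of the 5 root genes, 3 lay above and 2 below 0. The part of these tissues in the values of the 10 genes was not tested.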

How the data were processed

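PolyA RNA of whole seedlings was sequenced as 50-bp single reads from strand-specific libraries. The authors trimmed adapters with trimmomatic, mapped reads on TAIR10 with STAR 2.5.4b and counted them per Araport11 gene. The deposited signal is the count divided by 1 DESeq2 size factor per library. A second deposited table holds the authors' own fold changes and p-values and was not used. There were 0 other columns of sample values.

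Dividing by the smallest step of each library gave whole reads for 100% of values (tolerance 1e-06). The main test was that of limma 3.58.1 in R 4.3.3 (trended eBayes) on the log2 of normalized count + 1, with genotype as its only term, for genes with a mean of at least 1. On this scale the change of weak genes is understated. Alternatives were limma-voom, DESeq2 1.42.0 and edgeR 4.0.16, run on recovered reads, other scalings, filters, pseudocounts and thresholds, a term for the replicate number, and fits without each library. The 10 genes, the lists and the tests were chosen with earlier results of these data known. Genes named were these 10, *S2Lb*, genes silenced by methylation, and for each pathway list the calls and the 2 lowest p-values per direction (for each marker list, the 2 lowest). *DML2*, *IBM1* and neighbouring genes fall outside this rule and were added after their values were seen. Positions, exon lengths for TPM and promoters came from RefSeq TAIR10.1, which placed 37051 genes (99.2%). It names 1 gene in the table as a transposable element gene, so pseudogenes were described instead. The promoter of 1 of the 10 genes is not reported here. Floors cover counting error only.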

Additional observations from a re-analysis of the deposited data

How the results depend on the processing

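None of the 10 genes was called at an adjusted p under 0.01 in any alternative, or under 0.05 in the main fit. This says nothing about stability in the fits without 1 library, where no gene at all was called, or with a pseudocount of 0.1, where 1 gene was. Among the other pathway genes DESeq2 called 1 (*DML3*) and the other alternatives 0. The log2 fold changes of *ROS1*, *CMT3*, *NRPE1*, *DME* and *KYP* kept their sign throughout, and that of *ROS1* lay between 0.46 and 1.00 without each library in turn and between 0.70 and 0.74 otherwise. With all 4 libraries, the adjusted p of *ROS1* was 0.0296 by limma with the replicate number as a block and 0.0408 by DESeq2. Both lie under 0.05 and over 0.01, and the other fits of all 4 libraries gave 0.133 to 0.168. Of 150 values of the 10 genes under alternatives, 8 changed sign, all of them without 1 library: *MET1* (-0.081 to 0.030), *CMT2* (-0.12 to 0.056), *DDM1* (-0.21 to 0.063), *DRM2* (-0.19 to 0.018) and *NRPD1* (-0.13 to 0.11). Such fits take the spread of the remaining single library from the other genotype. The number of all misregulated genes moved from 29 to 1 with a pseudocount of 0.1, to 66 with library totals only, to 730 with DESeq2, to 379 at an adjusted p under 0.05 and to 0 without any 1 library (lowest and highest 0). The cause was not tested. *S2Lb* kept a log2 fold change of -4.31 with a pseudocount of 0.1 (adjusted p = 0.0111) and between -4.43 and -4.16 without each library, where it did not pass the threshold either. No scaling moved the median of all genes by over 0.1 on the log2 scale.

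With the replicate number as a block, limma called 663 genes (2.79%) and 0 of the 10, with an adjusted p of 0.0296 for *ROS1*. The correlation between the deviations of equally numbered libraries was 0.178 for the 23723 tested genes, which are not independent, and 0.407 where the mean exceeded 50. No label ties a replicate number to a common batch or day, and the numbers were therefore not taken as a pairing. Only 2 libraries per genotype limit the precision.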
